A study of Mus musculus with 11 samples.

Results

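The genes described here are 10 members of the surface machinery of the Notch pathway: the receptors Notch1, Notch2 and Notch3, the ligands Dll1, Dll3 and Jag1, the 3 Fringe genes Lfng, Mfng and Rfng, and Dner, which encodes a Delta/Notch-like membrane protein of neurons. They were taken by name, all 10 were found among the 48440 genes of the culture count table and all 10 among the 32285 genes of the single-cell matrices. Their levels were compared between mice with and without the RNA-binding protein Syncrip (hnRNP Q), and between the cell classes of the embryonic forebrain.

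The cKO animals carried Syncrip fl/fl and Emx1-Cre on a C57BL/6 background, with loxP sites around exons 2, 3 and 4, and the controls are labelled WT. Emx1-Cre acts in progenitors of the dorsal telencephalon and not in the ganglionic eminences (GE), so GE cells of the cKO embryo are not expected targets of the deletion. Bulk RNA-seq was made from neural progenitor cells (NPCs) taken from the lateral ventricles at E14.5 and expanded and passaged with EGF and bFGF, with 3 cultures per genotype. Single-cell RNA-seq was made from dorsal telencephalon of the same age, with 1 embryo per genotype, both from 1 litter. The labels do not say that the cultures came from separate animals, so p-values from the cultures measure the spread between 6 cultures.

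Notch receptors are membrane proteins that are cleaved when a ligand on a neighbouring cell binds and pulls on them, and the released intracellular part enters the nucleus with RBPJ and switches on Hes and Hey repressors. In the developing cortex, cells that begin to differentiate make proneural factors such as Neurog2, which raise Dll1, and so present the signal that holds their neighbours in the progenitor state. Fringe enzymes add a sugar to the Notch receptor, which changes how well it responds to Delta and to Jagged ligands. Dll3 is unlike Dll1 in that it stays largely inside the cell and does not activate receptors on neighbours.

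Promoter sequence was read for the members because the proteins that act on these genes have well-known binding letters. The searched letters were TGGGAA, the core bound by RBPJ, and the E-boxes CAGCTG and CAGATG, which proneural factors can bind, on both strands, within 250 bases before and 50 after each start in the RefSeq table (GRCm38.p6). The search was made after the results of the cultures were known. An entry was held for 9 members, and Mfng had none. An E-box was found in 4 of these 9 genes and the RBPJ core in 1, while 30.6% and 25.6% of all 32851 promoter windows of the table held them. Dll1 has 2 listed starts, and the window of the first held no match. The matches are shown 5′ to 3′ on the strand of the gene with the match in capitals, to show what each member's promoter holds. They are letters in a window, and binding there was not measured.
Dll1, chr17:15377050-15377073 (minus strand), E-box 132 bases before the second of 2 listed starts: attaccataCAGCTGagcgcacaa
Dll3, chr7:28301778-28301801 (minus strand), E-box 7 bases before the start: ggcatccagCAGCTGcgactcctg
Jag1, chr2:137116588-137116611 (minus strand), E-box 82 bases before the start: cgtttcatgCAGCTGatctgaaag
Lfng, chr5:140607224-140607247 (plus strand), RBPJ core 108 bases before the start: tatcccacgTGGGAAggagagatc
Lfng, chr5:140607197-140607220 (plus strand), RBPJ core read from the other strand, 135 bases before the start: gctgggtggTTCCCAgccccttgt

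Lfng, a known Notch target in other tissues, was the member with both kinds of letters. It held 2 RBPJ cores in opposite orientation and 2 E-boxes, of which the first lay 146 bases before the start, next to a core, and the other just after the start. The receptor genes held no match in these windows, which says only that these letters are not there.

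The 6 cultures held 16962903 to 22708400 counts over all genes, and genotypes were compared with edgeR's quasi-likelihood test with Benjamini-Hochberg adjustment over the 14432 genes that passed a filter on low counts. All 10 members passed it, and levels are given as CPM (counts per 1000000 counts) after TMM scaling. Of all genes tested, 39.5% differed between genotypes at an adjusted p of 0.05 and the 3 values of each genotype did not overlap in 50.4% of genes, so a single call is common here. Of the members, 4 were higher in cKO cultures (background 19.7%), 2 were lower (background 19.8%) and 4 did not pass the test. The same 6 members were those whose genotypes did not overlap. The median log2 fold change was 0.18 over the members and 0.00 over all genes. The ligands Dll1, Dll3 and Jag1 and the Fringe gene Lfng were the 4 higher members, Mfng and Dner were the 2 lower ones, and none of the 3 receptors passed. In bulk cultures, fewer cells of a type and less RNA per cell cannot be told apart.

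**Figure D1:**
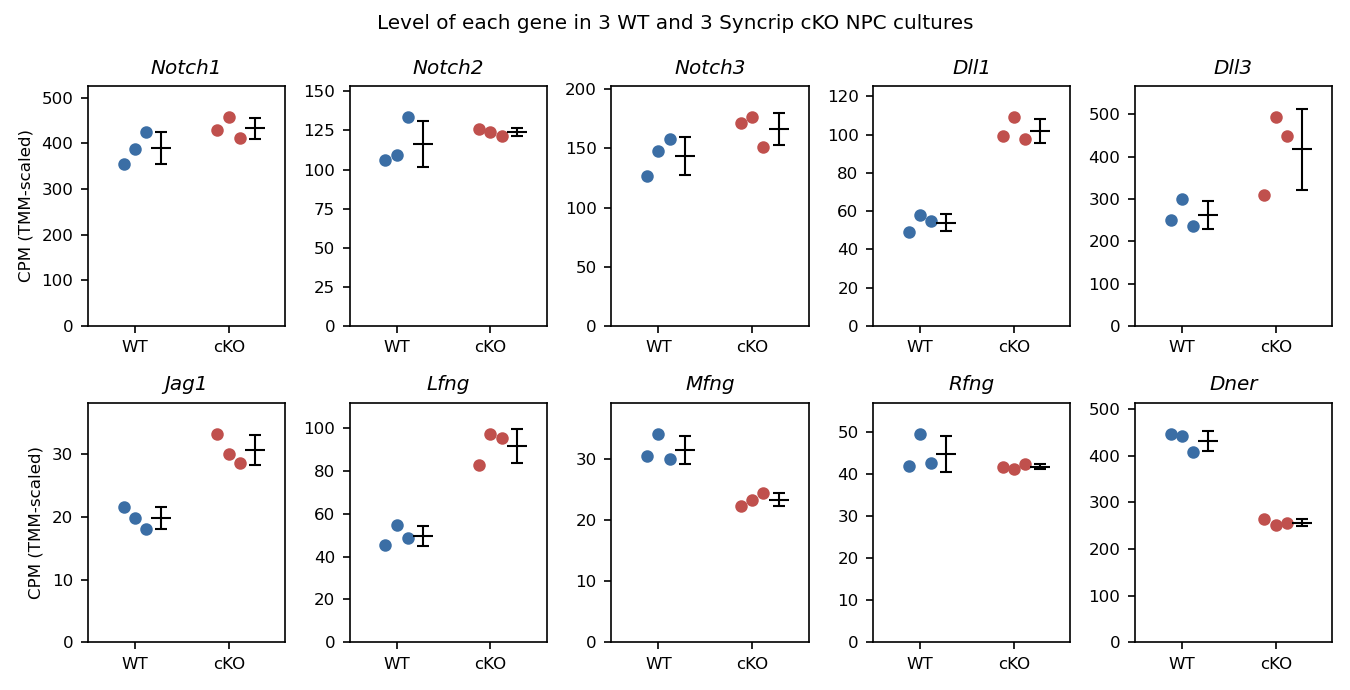
Level of each of the 10 genes in the 3 WT and 3 cKO NPC cultures, as TMM-scaled CPM on linear axes from 0. Points are cultures and bars are mean ± SD (n = 3). The genotypes stand apart for Dll1, Dll3, Jag1, Lfng, Mfng and Dner, and overlap for Notch1, Notch2, Notch3 and Rfng.

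The receptors were measured with many counts in both genotypes, and the CPM given here are not divided by exon length. Notch1 (chr2:26457903-26516663, minus strand, mm10), the main Notch receptor of cortical progenitors, stood at 354, 388 and 426 CPM in the WT cultures and at 430, 457 and 412 CPM in the cKO cultures, so the genotypes overlapped. The fitted log2 fold change was 0.15 (SE 0.087) with an adjusted p of 0.18 in edgeR's test. Notch2 (chr3:98013527-98150361, plus strand) stood at 106, 110 and 133 CPM in WT and 126, 124 and 121 CPM in cKO, again overlapping, with a log2 fold change of 0.09 (SE 0.088, adjusted p = 0.435). Notch3 (chr17:32120820-32166880, minus strand), best known from pericytes and smooth muscle of blood vessels, stood at 126, 147 and 158 CPM in WT and 171, 176 and 151 CPM in cKO. The lowest cKO culture lay below the highest WT culture. Its log2 fold change was 0.21 (SE 0.092) with an adjusted p of 0.085, and it passed under 2 of 14 alternative settings, without WT culture 3 (adjusted p = 0.0337) and with the replicate number as a block (adjusted p = 0.0376). Notch1 and Notch2 passed under none of the 14.

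All 3 ligands were higher in cKO cultures. Dll1 (chr17:15367354-15376872, minus strand), the Delta ligand that activates Notch on neighbouring cells, stood at 49.1, 58.0 and 54.6 CPM in the 3 WT cultures and at 99.0, 109 and 97.6 CPM in the 3 cKO cultures. Each cKO culture was above each WT culture, and the means were 53.9 ± 4.49 and 102 ± 6.23 CPM (SD, n = 3 each). Dll1 was thus 1.89-fold higher in cKO (log2 fold change 0.92, SE 0.087, edgeR adjusted p = 2.73e-06), the largest log2 fold change among the 10 members.

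Dll3 (chr7:28293553-28302238, minus strand), the Delta-like protein that acts within the cell that makes it, stood at 250, 300 and 237 CPM in WT and 308, 493 and 450 CPM in cKO. The genotypes did not overlap, but cKO culture 1 lay close above WT culture 2, and the cKO cultures spread widely (262 ± 33.3 against 417 ± 96.5 CPM). The gene was 1.59-fold higher (log2 fold change 0.67, SE 0.155, edgeR adjusted p = 0.00604). This call rests on 1 library: without WT culture 1 the log2 fold change was 0.63 and the adjusted p 0.146, while the other 13 alternatives kept the call.

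Jag1 (chr2:137081456-137116644, minus strand), the Jagged ligand, was the scarcest member in WT cultures, at 21.6, 19.8 and 18.2 CPM. It stood at 33.3, 30 and 28.6 CPM in cKO, where Mfng was scarcer. All 3 cKO cultures were above all 3 WT cultures. The fold was 1.54 (log2 fold change 0.63, SE 0.105, edgeR adjusted p = 0.000389).

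Of the 3 Fringe genes, Lfng was higher, Mfng was lower and Rfng did not pass. Lfng (chr5:140607320-140615545, plus strand) stood at 45.3, 54.8 and 48.8 CPM in WT and 82.4, 97.2 and 95.2 CPM in cKO, without overlap, and was 1.85-fold higher (log2 fold change 0.89, SE 0.096, edgeR adjusted p = 9.58e-06). Mfng (chr15:78755882-78773475, minus strand) stood at 30.4, 34.1 and 29.9 CPM in WT and 22.3, 23.3 and 24.4 CPM in cKO. Here each cKO culture was below each WT culture, and the level was 1.35-fold higher in WT (log2 fold change -0.43, SE 0.097, edgeR adjusted p = 0.00333). Rfng (chr11:120780746-120784207, minus strand) stood at 41.8, 49.5 and 42.5 CPM in WT and 41.7, 41.1 and 42.2 CPM in cKO. Its genotypes overlapped, with a log2 fold change of -0.10 (SE 0.096, adjusted p = 0.452).

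Dner (chr1:84369839-84696221, minus strand), whose protein has been described as a Notch ligand of neurons, was the more lowered of the 2 members that were lower in cKO. It stood at 447, 441 and 407 CPM in WT and 264, 251 and 255 CPM in cKO, so that the genotypes lay far apart relative to their spread (431.5 ± 21.7 and 256.5 ± 6.77 CPM). The level was 1.68-fold higher in WT (log2 fold change -0.75, SE 0.077, edgeR adjusted p = 5.75e-06).

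The calls on Dll1, Jag1, Lfng, Mfng and Dner held under all 14 alternatives, with log2 fold changes of 0.85 to 0.96 for Dll1, 0.55 to 0.69 for Jag1, 0.82 to 0.95 for Lfng, -0.47 to -0.38 for Mfng and -0.79 to -0.72 for Dner. Divided by exon length, so that genes can be set side by side, the WT levels were highest for Dll3 (92.0 CPM per kilobase) and Dner (90.2), followed by Notch1 (27.4), Lfng (19.8), Rfng (17.9), Notch3 (17.8), Dll1 (12.8), Mfng (11.1), Notch2 (10.8) and Jag1 (3.41). In cKO cultures Dll3 reached 146.3 and Dner 53.6 CPM per kilobase, and Dll1 reached 24.1. On the same scale the WT cultures of Dll3 (83.1 to 105.3) and Dner (85.0 to 93.4) overlapped, as did those of Rfng, Lfng and Notch3.

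A few members share ground with other genes. The span of Notch3 overlaps Gm17276 over 45.6% of its length, and the deposited table gives that gene 7 counts over the 6 cultures against 18647 for Notch3. Dll1 overlaps A930024N18Rik over 19.7% of its length, with 98 counts against 9269. For the other 8 members the overlap was at most 5.98%. Whether reads were counted by strand is not given in the sources used here, and the counts of the overlapping genes are small beside those of the members.

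The rest of the pathway was read from lists chosen with earlier results known. Their counts stand beside background shares of 19.7% higher and 19.8% lower over all genes tested. Among 7 other receptors and ligands, 2 were higher, 1 was lower and 4 did not pass, with a median log2 fold change of 0.01. Dlk1, a non-canonical ligand, was higher with overlapping cultures at very low level (0.72, 1.45 and 1.12 CPM in WT, 1.42, 2.51 and 2.27 in cKO, log2 fold change 0.92, edgeR adjusted p = 0.0464). Cntn1, a cell adhesion molecule reported as a Notch ligand, was higher by 0.34 on the log2 scale (adjusted p = 0.00755), and Dlk2 was lower by 0.52 (log2 fold change -0.52, adjusted p = 0.0437).

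Of 25 tested genes that process, traffic or ubiquitinate the receptors and ligands, 3 were higher, 7 were lower and 15 did not pass. Their median log2 fold change was -0.09. Over all genes tested, 19.7% were higher and 19.8% lower, 39.5% in either direction. Epn2, an epsin that takes part in ligand endocytosis, stood at 190.1, 189.2 and 194.5 CPM in WT and at 312, 385 and 367 CPM in cKO (log2 fold change 0.89, edgeR adjusted p = 3.90e-06). The other 2 higher genes were Numb (0.52), an inhibitor of Notch, and Ncstn (0.32), a subunit of gamma-secretase. The 7 lower genes were Dtx1 (-0.54), Psenen (-0.51), Numbl (-0.46), Dtx4 (-0.38), Aph1a (-0.38), Furin (-0.29) and Adam17 (-0.28). Subunits of gamma-secretase, the enzyme that releases the intracellular part of Notch, thus stood on both sides, with Ncstn higher and Psenen and Aph1a lower. Fbxw7 is listed at 0 in all 6 cultures and was not tested.

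Among 15 nuclear partners of Notch, 3 were higher, 1 was lower and 11 did not pass (median log2 fold change 0.01). Background shares were again 19.7% higher and 19.8% lower. The coactivators Maml2 and Maml3 moved apart. Maml2 stood at 143.8, 116.2 and 118.5 CPM in WT and 266, 249 and 242.5 CPM in cKO (log2 fold change 1.0, edgeR adjusted p = 1.96e-06), while Maml3 was lower (log2 fold change -0.82, adjusted p = 0.0106). Rbpj, the DNA-binding partner, had a log2 fold change of 0.16 (adjusted p = 0.108). All 4 tested targets were higher, Hes1 by 2.84, Hey2 by 1.31, Hes5 by 0.49 and Hey1 by 0.45 on the log2 scale. Nrarp is listed at 0 and Heyl fell below the filter on low counts. Of 4 tested proneural genes, 1 was higher, 2 were lower and 1 did not pass, with a median log2 fold change of -0.70. Neurog2 was the higher one (0.70, adjusted p = 0.0187), Insm1 was among the lower (-1.47, adjusted p = 8.89e-06), and Hes6 did not pass (-0.26, adjusted p = 0.0915).

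Marker lists were read in the cultures in the same way. Their counts stand beside the 19.7% of all genes tested that were higher and the 19.8% that were lower. Slc1a3 (2782 CPM in WT), Fabp7 (1111 CPM) and Mfge8 (999 CPM), genes of the apical progenitor list, were high. Summed markers of astrocytes and of the oligodendrocyte lineage were high too (below), so these genes do not by themselves name the cells. Eomes, the defining gene of intermediate progenitors, was near 0 (0.272 CPM in WT and 0.0845 CPM in cKO). Tbr1, a gene of deep-layer neurons, was at 0.83 and 0.56 CPM. Sox2 and Neurod1 are listed at 0 in all 6 cultures. Whether these 0 values come from the counting or from the cells was not tested, and they are not read as absence. The summed level of the 9 tested apical progenitor markers was 7209 to 8706 CPM in WT and 7321 to 8187 CPM in cKO, with 2 higher, 5 lower and 2 not passing. Of 5 intermediate progenitor markers 2 were higher and none was lower, and their summed level did not overlap between genotypes (488 to 523 CPM in WT, 571 to 616 CPM in cKO). All 6 cycling markers were higher (169 to 219 CPM summed in WT, 306 to 435 CPM in cKO). Of 6 astrocyte markers 5 were lower (2951 to 3206 and 2072 to 2350 CPM), of 7 oligodendrocyte lineage markers 2 were higher and 2 lower (3938 to 4194 and 3076 to 3542 CPM), of 6 migrating neuron markers 5 were lower (331 to 344 and 217 to 231 CPM), of 9 immature neuron markers 5 were lower and 2 higher (937 to 1032 and 706 to 734 CPM), and of 3 pericyte markers 2 were lower (144 to 187 and 153 to 170 CPM). Of 6 GE markers 3 were lower (65.0 to 72.6 and 54.5 to 60.7 CPM), of 4 Cajal-Retzius markers 2 were lower and 1 higher (72.7 to 81.9 and 66.1 to 67.4 CPM), and of 3 endothelial markers 1 was lower (4.12 to 5.04 and 2.80 to 3.85 CPM). The single tested meningeal marker (3.45 to 4.11 and 6.62 to 7.57 CPM summed over the list) and the single tested microglia marker (0.390 to 1.12 and 1.32 to 2.27 CPM) were higher. Any part of these marker levels in the differences of Dll1, Dll3, Jag1, Lfng, Mfng and Dner was not tested. The cultures also differ in sex within both genotypes.

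The single-cell matrices held 8214 WT and 9559 cKO cells after filtering, with a median of 11705 and 11016 UMIs per cell. Cells were grouped into 28 clusters without using the members or the pathway lists, and clusters were named from marker genes, which gave 11 named classes besides red blood cells. Unnamed clusters held 10.4% of WT and 10.5% of cKO cells. Cells called as doublets (3.63% and 4.64%) were kept in both libraries, and 22 barcodes occur in both. With 1 embryo per genotype, and the embryos of different sex, there is no test between genotypes, and the 95% Poisson intervals given here cover counting error only.

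The receptors were highest in progenitors and in cells of blood vessels, and each had its own pattern. Notch1 stood at 254 CPM (228 to 282) in endothelial-like cells, 241 CPM (193 to 297) in pericyte-like cells, 167 CPM (160 to 174) in apical progenitor-like cells and 128 CPM (111 to 146) in cycling GE-like cells of the WT embryo. Endothelial-like and pericyte-like cells did not differ beyond their intervals, and both lay above apical progenitor-like cells. In the cKO embryo endothelial-like cells (191.5 CPM, 168 to 217) again lay above apical progenitor-like cells (161 CPM, 155 to 167), and pericyte-like cells (196 CPM, 144 to 260) overlapped both. Further down came intermediate progenitor-like cells at 71.7 CPM, GE-like cells at 15.7 CPM, migrating neuron-like cells at 9.82 CPM and immature neuron-like cells at 1.52 CPM. Apical progenitor-like cells held 53.8% of all Notch1 UMIs of the WT embryo and 61.4% of those of the cKO embryo, with 12.9% and 17.1% of all UMIs.

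Of the receptors, Notch2 had the largest share of its UMIs in apical progenitor-like cells (68.0% in WT, 73.1% in cKO), where it stood at 157 CPM (150 to 164) in WT. Meningeal fibroblast-like cells came next at 88.4 CPM (52.4 to 140), and every other class had less than 30 CPM, with intermediate progenitor-like cells at 14.1 CPM. In the cKO embryo the order at the top was again apical progenitor-like cells (144 CPM) above fibroblast-like cells (109 CPM, 80.3 to 145). The upper limit for the fibroblast-like cells then reached the level of the progenitors.

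Notch3 was highest in pericyte-like cells, at 263 CPM (213 to 321) in the WT embryo and 224 CPM (169 to 292) in the cKO embryo. Endothelial-like cells followed at 79.8 CPM (65.6 to 96.2) and apical progenitor-like cells at 45.8 CPM (42.1 to 49.6) in WT, in separate intervals. Since pericyte-like cells were few (27 and 18 cells), apical progenitor-like cells still held 60.0% of Notch3 UMIs in WT and 71.6% in cKO. Intermediate progenitor-like cells had 5.96 CPM and migrating and immature neuron-like cells about 1 CPM.

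The Delta ligands were highest in cycling GE-like and intermediate progenitor-like cells, not in those with the most receptor. Dll1 was highest in cycling GE-like cells (57.7 CPM, 46.7 to 70.7, in WT), then in intermediate progenitor-like cells (32.8 CPM, 29.3 to 36.6) and apical progenitor-like cells (26.1 CPM, 23.4 to 29.1), each in a separate interval. Migrating neuron-like and GE-like cells had 17.5 and 17.4 CPM and could not be told apart. In the cKO embryo cycling GE-like cells (43.1 CPM, 34.5 to 53.2) and intermediate progenitor-like cells (33.7 CPM, 30.2 to 37.5) overlapped. Pericyte-like and microglia-like cells gave no Dll1 UMI, which, taking 3 counts as the floor, allows up to 8.21 and 7.85 CPM in WT and 12.2 and 7.87 CPM in cKO.

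Dll3 was likewise highest in cycling GE-like cells (46.1 CPM in WT, 52.1 CPM in cKO) and intermediate progenitor-like cells (31.3 and 36.8 CPM), but it was lower in apical progenitor-like cells (4.51 and 4.88 CPM) than in migrating neuron-like cells (17.2 and 16.2 CPM) or immature neuron-like cells (10.3 and 11.5 CPM). Cajal-Retzius-like cells, early neurons at the cortical surface, had 18.2 CPM (10.4 to 29.6) in the WT embryo and 26.4 CPM (18.1 to 37.0) in the cKO embryo, overlapping with migrating neuron-like cells in WT. Dll1 and Dll3 thus had the same leading class, and apical progenitor-like cells stood near the top for Dll1 only.

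Jag1 levels were highest in cells of vessels and meninges. Meningeal fibroblast-like cells had 83.5 CPM (48.6 to 134) in WT, pericyte-like cells 73.9 CPM (48.7 to 108) and endothelial-like cells 64.6 CPM (51.9 to 79.5), 3 classes that could not be ordered by their intervals. All other named classes were at or below 9 CPM, apical progenitor-like cells among them at 7.77 CPM in the WT and 8.87 CPM in the cKO embryo. Because of their number, apical progenitor-like cells gave 21.4% and 28.3% of Jag1 UMIs, and endothelial-like cells 19.1% and 15.2%.

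Each Fringe gene had its own pattern over the classes, but apical progenitor-like cells held Mfng as well as Lfng. Mfng stood there at 32.0 CPM in WT (29.0 to 35.3) and 35.1 CPM in cKO (32.5 to 37.9). Lfng was in apical progenitor-like cells (26.0 CPM in WT, 23.3 to 29.0, and 23.1 CPM in cKO, 20.9 to 25.3) and in endothelial-like cells, and was almost absent from intermediate progenitor-like cells (0.82 and 0.79 CPM) and from migrating and immature neuron-like cells (at most 0.56 CPM). Apical progenitor-like cells held 74.9% and 87.3% of Lfng UMIs, the largest share for any member. In endothelial-like cells Lfng stood at 42.1 CPM (31.9 to 54.4) in the WT embryo and 11 CPM (6.01 to 18.4) in the cKO embryo, where the median UMI count per cell was 2146 and 3226. These levels came from 58 and 14 UMIs in 100 and 96 cells. At resolution 1.2 the endothelial-like class had only 24 and 33 cells, which held 57 and 13 Lfng UMIs.

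Mfng had its peak in intermediate progenitor-like cells (169 CPM, 161 to 177, in the WT embryo and 205 CPM, 196 to 214, in the cKO embryo). Endothelial-like cells (98.7 CPM in WT), cycling GE-like cells (85.4 CPM) and migrating neuron-like cells (75.3 CPM) came next, apical progenitor-like cells had 32.0 CPM and immature neuron-like cells 4.03 CPM. Intermediate progenitor-like and migrating neuron-like cells held 35.4% and 37.7% of Mfng UMIs in WT. Rfng had no such peak. It stood at 21.7 CPM in Cajal-Retzius-like, 21.5 CPM in immature neuron-like, 21.0 CPM in GE-like, 17.0 CPM in migrating neuron-like, 12.1 CPM in apical progenitor-like and 11.3 CPM in intermediate progenitor-like cells of the WT embryo.

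Dner was highest in neurons. In WT it stood at 177 CPM (169 to 186) in GE-like cells and 165 CPM (140 to 194) in Cajal-Retzius-like cells, which overlapped, then at 90.5 CPM in migrating neuron-like, 79.9 CPM in cycling GE-like, 71.7 CPM in immature neuron-like, 25.9 CPM in intermediate progenitor-like and 15.7 CPM in apical progenitor-like cells. In red blood-like cells, which should lack it, 1 UMI in WT (4.46 CPM) and 3 in cKO (12.3 CPM) were counted.

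**Figure D2:**
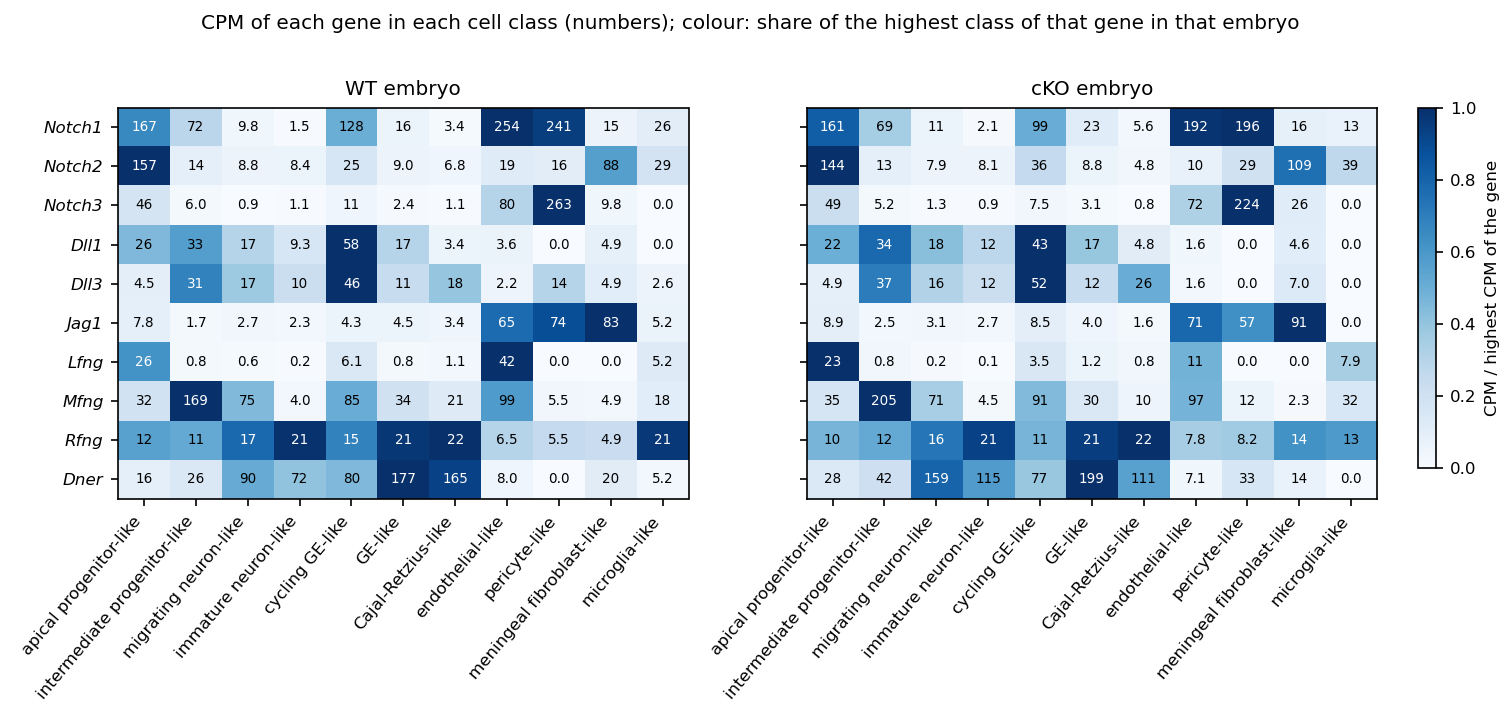
Level of the 10 genes in 11 cell classes of the WT and the cKO embryo, as CPM of the summed UMIs of each class. Numbers are CPM and colour is the level over the highest class of that gene in that embryo. Notch1, Notch2, Notch3 and Lfng are dark in progenitors or vessel cells, Dll1, Dll3 and Mfng in intermediate progenitor-like or cycling GE-like cells, Jag1 in vessel and meningeal cells, and Dner in neurons.

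The same class was highest in both embryos for 8 of the 10 members. The exceptions were Notch1, with endothelial-like and pericyte-like cells within each other's intervals, and Lfng, which was highest in endothelial-like cells in WT and in apical progenitor-like cells in cKO.

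Shares of cells were compared at equal depth. With each cell thinned to 5000 UMIs, which left 776 of 952 WT and 1143 of 1317 cKO apical progenitor-like cells, a Notch1 UMI was found in 53.0% of WT and 53.2% of cKO cells (71.7% and 74.5% unthinned). For immature neuron-like cells, the class of lowest Notch1 level, the shares were 0.671% and 0.919%, with median depths before thinning of 15772 and 15212 UMIs against 12535 and 12664 UMIs in apical progenitor-like cells. Notch2 was found in 47.7% and 45.7% of apical progenitor-like cells and Notch3 in 20.2% and 22.7%. Lfng was found in 12.5% and 10.1% of apical progenitor-like cells against 0.305% and 0.285% of intermediate progenitor-like cells.

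Dll1 was found in 11.5% and 9.54% of apical progenitor-like, 14.3% and 13% of intermediate progenitor-like and 21.2% and 20.7% of cycling GE-like cells, and in 4.16% and 5.78% of immature neuron-like cells. None of the 26 thinned WT and 18 thinned cKO pericyte-like cells had a Dll1 UMI, which allows shares of cells with a UMI of up to 11.5% and 16.7%. This limits cells with a UMI at this depth, not cells that express the gene. Mfng was found in 57.8% and 65.5% of intermediate progenitor-like cells, and Jag1 in 2.58% and 4.11% of apical progenitor-like cells against 0.85% and 1.05% of immature neuron-like cells.

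Between embryos, ratios were formed where a class held at least 200 UMIs of a gene in both embryos together. In apical progenitor-like cells 9 members reached that depth, all but Dll3 (58 and 93 UMIs). The log2 ratio was 0.2 or more in either direction for 23.0% of 10379 genes of that depth, and for 2 of the 9 members, Dner higher and Dll1 lower in the cKO embryo (background 12.9% and 10.2%). The median log2 ratio was -0.05 over the 9 members and -0.01 over all genes.

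Dll1 in apical progenitor-like cells stood at 26.1 CPM in the WT and 21.5 CPM in the cKO embryo, a log2 ratio of -0.28 (-0.49 to -0.07). The phases of the cell cycle were not equally filled in the 2 embryos, and with phases given equal weight the log2 ratio was -0.01. Notch2 had a log2 ratio of -0.12 (-0.20 to -0.04), and -0.21 with equal phase weights. For Notch1 the log2 ratio was -0.05 (-0.13 to 0.03), for Notch3 0.11 (-0.04 to 0.26), for Jag1 0.19 (-0.17 to 0.56), for Lfng -0.18 (-0.38 to 0.03), for Mfng 0.13 (-0.05 to 0.31) and for Rfng -0.20 (-0.51 to 0.11). These 6 intervals all spanned 0. The upper bounds for Dll1, Lfng and Jag1 lay below their log2 fold changes in the cultures, which were 0.92 for Dll1 and 0.89 for Lfng. These bounds cover counting error only and hold no spread between embryos, and passaged cultures are here set beside tissue. The distance between cultures and embryos was not tested.

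Among values with at least 200 UMIs, Dner had the widest differences between the embryos. It stood at 15.7 CPM (13.6 to 18.0) in apical progenitor-like cells of the WT embryo and 27.5 CPM in those of the cKO embryo, 1.75-fold higher (log2 ratio 0.81, 0.57 to 1.05). In intermediate progenitor-like cells it stood at 25.9 and 42.1 CPM (log2 ratio 0.70, 0.47 to 0.93), in migrating neuron-like cells at 90.5 and 159 CPM (0.81, 0.74 to 0.89) and in immature neuron-like cells at 71.7 and 115 CPM (0.69, 0.62 to 0.76). All 4 dorsal classes thus differed in the direction opposite to the cultures. Any part of free RNA, as counted in the red blood-like cells above, in these ratios was not tested. In GE-like cells the log2 ratio was 0.17 (0.08 to 0.26), in cycling GE-like cells -0.05, and in Cajal-Retzius-like cells -0.57 (-0.92 to -0.23, 165 and 111 CPM).

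The share of cells with a Dner UMI moved with the level, from 4.64% to 8.49% in apical progenitor-like, 30.3% to 44.6% in migrating neuron-like, 26.8% to 37.5% in immature neuron-like and 51.1% to 54.3% in GE-like cells at 5000 UMIs. Of 18 clusters with enough Dner UMIs, the interval lay above 0 in 13 and below 0 in 1, and log2 ratios ran from -0.57 to 1.13. The 13 include unnamed clusters of low UMI count. Clusters of 1 class were not alike. The 2 intermediate progenitor-like clusters of this depth stood at 0.28 (-0.07 to 0.63) and 1.13 (0.70 to 1.57), and the 3 immature neuron-like ones at 0.40, 0.74 and 0.94. GE-like clusters stood at -0.28 (-0.58 to 0.02), 0.06 (-0.08 to 0.19), 0.33 (0.02 to 0.65) and 0.41 (0.25 to 0.58). The highest of these was like the lowest migrating neuron-like (0.36) and immature neuron-like (0.40) clusters. A migrating neuron-like cluster led by Tfap2d held 131 WT and 475 cKO cells. Without it the log2 ratio of Dner in migrating neuron-like cells was 0.50 (0.41 to 0.59).

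The other classes were read with the same limit. In intermediate progenitor-like cells 3 of 7 members were higher in cKO (background 11.5%) and none was lower (9.75%), namely Dner, Mfng (log2 ratio 0.28, 0.19 to 0.38) and Dll3 (0.23, 0.01 to 0.45), while Dll1 stood at 0.04, Notch1 at -0.05, Notch2 at -0.08 and Rfng at 0.05. In migrating neuron-like cells Dner was the only one of 7 members past the limit (12.3% of genes higher, 9.48% lower). In immature neuron-like cells 2 of 6 were higher and none lower (9.41% and 9.16%, 18.6% either way), Dner and Dll1, the latter at 9.30 and 12.1 CPM (log2 ratio 0.38, 0.18 to 0.59). In GE-like cells Notch1 was the only one of 6 past the limit (10.5% of genes higher, 7.84% lower), at 15.7 and 22.6 CPM (0.53, 0.23 to 0.83), and in cycling GE-like cells it was lower, at 128 and 98.8 CPM (-0.37, -0.66 to -0.08, 1 of 3 members, 31.7% of genes past the limit in either direction). In Cajal-Retzius-like cells Dner was the sole member of sufficient depth (35.4% of genes past the limit, 19.9% lower). By cluster, Mfng lay above 0 in 2 of 12 and below 0 in 1, Dll1 above in 2 of 7 and below in 1, and Notch1 above in 1 of 8 and below in 2.

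**Figure D3:**
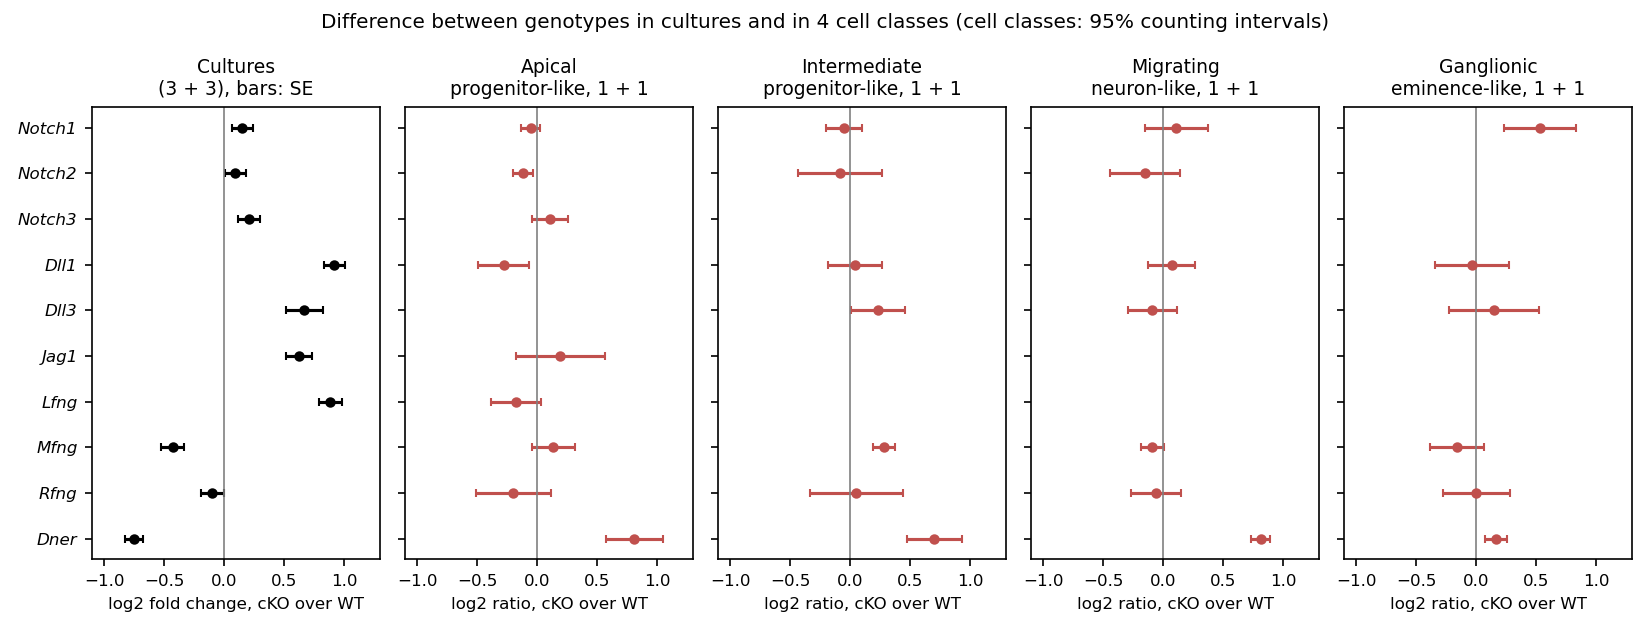
Difference between genotypes for each gene, cKO over WT on the log2 scale. The first panel gives the cultures (3 and 3, bars are SE) and the other panels 4 cell classes (1 embryo each, bars are 95% counting intervals), with genes under 200 UMIs left out. Dll1, Dll3, Jag1 and Lfng lie between 0.63 and 0.92 in cultures, and in apical progenitor-like cells Dll1 is at -0.28 and Lfng at -0.18. Dner is at -0.75 in cultures and between 0.17 and 0.81 in the 4 classes.

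The rest of the pathway in apical progenitor-like cells was read at the same log2 ratio of 0.2. Of all genes with at least 200 UMIs there, 12.9% were higher and 10.2% lower, 23.0% in either direction. Of 22 processing genes with 200 UMIs 2 were higher and none lower, Dtx1 (log2 ratio 0.77, 0.38 to 1.18), a ubiquitin ligase of Notch, and Dtx3 (0.28). Of 15 nuclear partners 2 were higher (Maml3 and Hdac1, both 0.26) and 1 was lower. Of 2 other receptors and ligands Notch4 was higher (0.27). Of 4 targets Hes1 was higher (0.35) and Hes5 lower (-0.25, -0.33 to -0.18), with Hey1 at 0.10 and Nrarp at -0.18. Of 5 proneural genes 1 was higher and 2 were lower. Insm1 was among the lower (-0.45), and Neurog1 was higher by 0.38, with an interval that spanned 0.

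Within apical progenitor-like cells several members followed the assigned cell cycle phase. For Jag1, Rfng and Dner the intervals of the phases overlapped in both embryos. Cells were assigned to S, G2/M or G1 from 43 S and 54 G2/M genes, and G1 held 16.4% of WT and 12.1% of cKO cells, S 32.5% and 42.3%, and G2/M 51.2% and 45.6%. Dll1 stood at 11.8 CPM in S, 13.7 CPM in G2/M and 99.8 CPM (86.2 to 115) in G1 of the WT embryo, and at 14.4, 12 and 98.2 CPM (84.6 to 113) in the cKO embryo. The intervals of the 2 embryos overlapped in each phase, while G1 stood far above S and G2/M in both.

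Mfng and Dll3 shared this rise in G1. Mfng stood at 25.6, 19.4 and 90.0 CPM in S, G2/M and G1 of WT and 25.3, 25.5 and 122 CPM of cKO, and the G1 values (77.2 to 104 and 107 to 139) did not overlap between embryos. Dll3 stood at 2.71, 2.19 and 16.5 CPM in WT and 5.01, 2.66 and 15.8 CPM in cKO. The proneural gene Neurog2 took the same course, at 145, 169 and 895 CPM in WT and 187, 189 and 1303 CPM in cKO.

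Lfng and Notch2 ran the other way. Lfng stood at 31.5, 26.7 and 12.3 CPM in S, G2/M and G1 of WT and 21.3, 26.3 and 13.1 CPM of cKO, so that the embryos differed beyond their intervals in S only (26.3 to 37.4 against 18.1 to 24.9). Notch2 stood at 156, 166 and 126.5 CPM in WT and 139.6, 159 and 89.2 CPM in cKO, with separate G1 intervals (111 to 143 and 76.3 to 104). Notch1 varied less, at 155, 166 and 194 CPM in WT and 148, 169 and 171 CPM in cKO. Dner was higher in cKO in each phase, at 15.5, 17.2 and 10.8 CPM in WT and 30.8, 25.5 and 25.2 CPM in cKO, and no interval overlapped between embryos. Cells without a strong S or G2/M score are called G1, so this phase can also hold cells that have left the cycle, and free RNA also enters such calls.

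**Figure D4:**
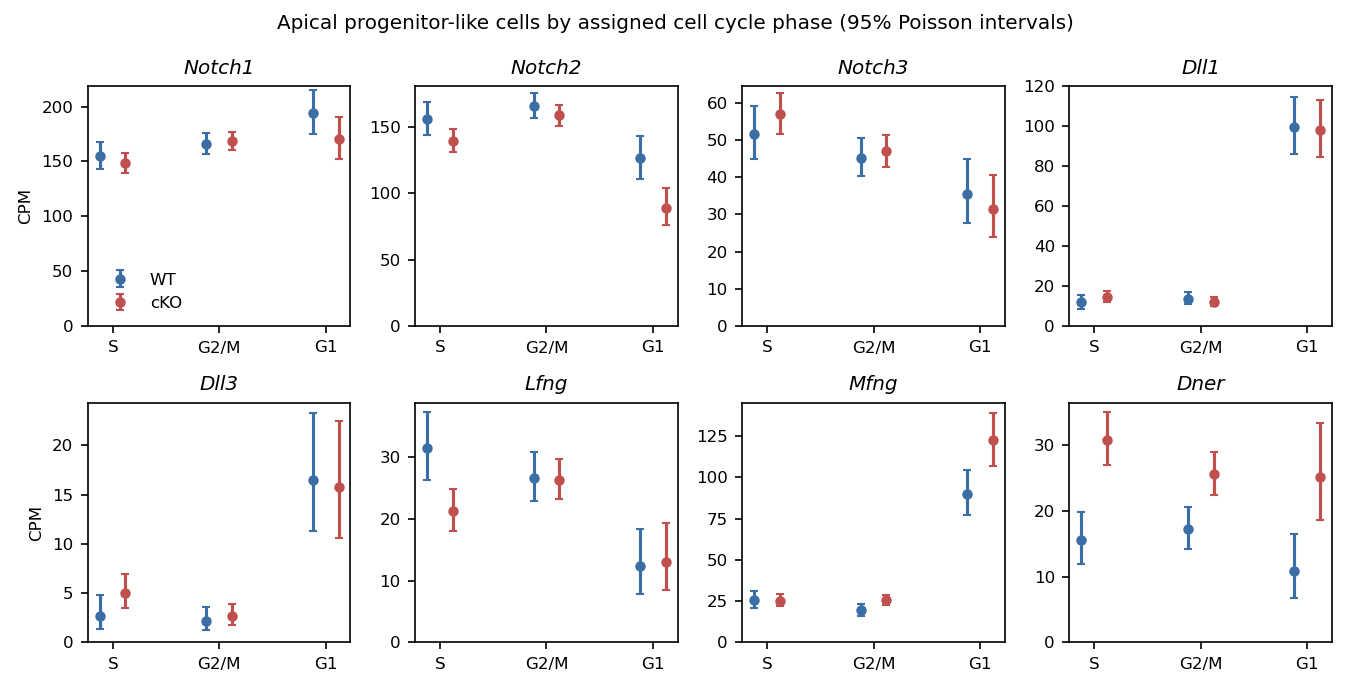
Level of 8 members in apical progenitor-like cells by assigned cell cycle phase, in CPM, for the WT embryo (blue) and the cKO embryo (red). Bars are 95% Poisson intervals on summed UMIs. Dll1, Dll3 and Mfng are highest in G1 in both embryos, Lfng is lowest there, and Dner lies higher in cKO in all 3 phases.

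Cells with a Dll1 UMI were then set against those without, among apical progenitor-like cells thinned to 5000 UMIs. Dll1 was highest in cells called G1, and phase was not held equal in this split, so it is not separate from the contrast of phases above. In WT 89 cells had a Dll1 UMI and 687 had none, and in cKO 109 and 1034. Cells that were negative may still make Dll1, since the gene is sparse at this depth. Mfng was higher in cells with Dll1, at 108 CPM (79.5 to 143) against 21.8 CPM (17.2 to 27.4) in WT and 150.5 against 27.9 CPM in cKO. Neurog2 was higher too, at 973 against 254 CPM in WT and 1202 against 258 CPM in cKO.

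Receptors did not move as 1 group in this split. Notch1 stood at 182 CPM in WT cells with Dll1 and 163 CPM in those without, and at 182 and 163 CPM in cKO, with overlapping intervals in both embryos. Notch2 was lower in cells with Dll1, at 74.2 CPM (51.1 to 104) against 167 CPM (153 to 181) in WT and 66.1 against 147 CPM in cKO. Notch3 stood at 22.5 CPM (10.8 to 41.3) against 48.6 CPM (41.5 to 56.6) in WT, just apart, and at 38.5 against 55.3 CPM in cKO, where the intervals overlapped. Lfng stood at 13.5 against 29.7 CPM in WT and 14.7 against 23.2 CPM in cKO, overlapping in both.

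Of the Notch targets, Hes1 was lower in cells with Dll1. It stood at 62.9 CPM (41.8 to 90.9) against 158 CPM (145 to 172) in WT and 101 against 216 CPM in cKO. In these cells Hes5 stood at 133 against 198 CPM in WT and 136 against 178.5 CPM in cKO, with separate intervals in WT and overlapping ones in cKO. In intermediate progenitor-like cells, where 94 WT and 91 cKO cells had a Dll1 UMI, Mfng stood at 183 CPM with Dll1 and 186.5 CPM without in WT and at 253 and 215 CPM in cKO. Hes5 ran the other way there, at 44.7 CPM (27.7 to 68.3) with Dll1 against 14.6 CPM (10.5 to 19.8) without in WT, and at 37.4 against 23.2 CPM in cKO, where the intervals overlapped. In WT cycling GE-like cells Hes5 was likewise higher with Dll1 (127 CPM, 69.6 to 213.5, in 22 cells, against 14.6 CPM, 5.37 to 31.9), and in cKO it stood at 32 against 6.25 CPM with overlapping intervals.

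**Figure D5:**
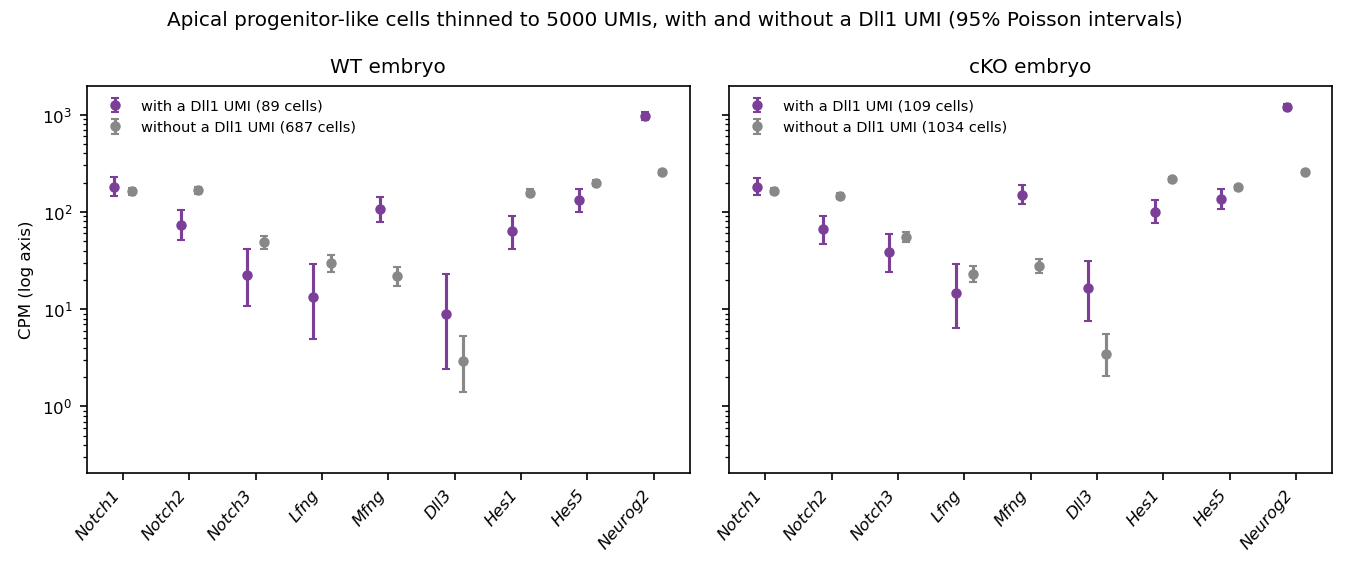
Level of 6 members and of Hes1, Hes5 and Neurog2 in apical progenitor-like cells with (purple) and without (grey) a Dll1 UMI after thinning to 5000 UMIs, in CPM on a log axis, with 95% Poisson intervals. In both embryos Mfng and Neurog2 are higher and Notch2 and Hes1 lower in cells with a Dll1 UMI, while Notch1 lies close together.

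Genes of similar pattern were looked up over the 51 pairs of cluster and embryo with at least 20 cells, among 7302 genes. These correlations are descriptions over clusters that share 2 libraries. Notch1 was closest to Myo10 (r = 0.925), Ctnna1 (0.915) and Nes (0.893), the last a filament gene of neural progenitors, Notch2 to Megf10 (0.926), Samd4 (0.869) and Tcf7l1 (0.857), and Notch3 to Mfge8 (0.93), Phactr2 (0.924) and Plce1 (0.922). Dll1 was closest to B3gnt5 (0.834), Zc3h12c (0.83) and Pantr2 (0.822), and Dll3 had the loosest companions, Elavl4 (0.695), Ppp2r3c (0.691) and Gadd45g (0.676).

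Jag1 ran with genes of the basement membrane and matrix, Lama4 (0.928), Bgn (0.923) and Nid1 (0.922). Lfng was closest to Rgcc (0.877), Ddah1 (0.823) and Hes1 (0.816), itself a Notch target, Mfng to Btg2 (0.804), Ezr (0.786) and Coro1c (0.769), Rfng to March9 (0.879), Nsg1 (0.858) and Ccl27a (0.838), and Dner to Aldh1l2 (0.934), Celf4 (0.915) and Dclk1 (0.912). Among the members themselves, Notch1 and Notch3 (0.80) and Notch3 and Jag1 (0.798) were closest, Dll1 ran with Dll3 (0.62) and with Mfng (0.582), and Rfng ran opposite to Notch1 (-0.708).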

How the data were processed

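The culture table holds raw counts per gene as deposited by the authors, made from paired-end reads aligned to mm10 with HISAT2. For the counting program and any use of strand, the labels and methods give nothing. The single-cell matrices hold UMI counts deposited by the authors from 10x libraries processed with Cell Ranger. The 3 LACE-seq libraries were not analysed here. Counts were tested with edgeR 4.0.16 (filterByExpr, TMM, quasi-likelihood, 3 against 3, no covariates), adjusted over 14432 genes. An exact permutation test on 3 against 3 cannot go below p = 0.1, so none is printed.

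Barcodes under 200 genes or over 10% mitochondrial UMIs were dropped and the rest clustered with Seurat 5.3.0 (2000 variable genes without members and pathway lists, 30 components, 20 neighbours, resolution 0.8). A class name needed at least 3 of its markers raised 1.5-fold. UMIs were summed per class and embryo. Ratio intervals treat counts as Poisson (95%).

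All 10 members are named. From the pathway lists, genes past an adjusted p of 0.05 with a log2 change of at least 0.58 were to be named with their values, and other genes appear after their values were seen. Members and lists were chosen with earlier results of these data known. On simulated counts 196 of 200 changed genes of 14432 were recovered, and 94.97% of ratio intervals held the true ratio. The planted changes were larger than that of any member, so recovery of smaller changes was not measured. The simulated ratios were drawn from the Poisson model that the intervals assume, so that share does not cover spread between embryos. Alternatives were no filter, a filter of 1 CPM, RLE and upper quartile scaling, sex of the culture as covariate, DESeq2 1.42.0, limma-voom 3.58.1, a replicate block, each culture left out, other cell filters, doublets removed, thinning, phases, and resolutions 0.4 and 1.2. Scaling by the median ratio and leaving out the cluster of lowest UMI count were also tried in the embryos. Results for 2 genes of the pathway lists are not reported here.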

Additional observations from a re-analysis of the deposited data

Results flagged for a closer look

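Several members differed in opposite directions between the cultures and the embryos, and none of these differences was itself tested, since there is 1 embryo per genotype. Dll1 was higher in cKO cultures and had a log2 ratio of -0.28 in apical progenitor-like cells, which was -0.01 with cell cycle phases weighted equally. Mfng was lower in cKO cultures and had a log2 ratio of 0.28 in intermediate progenitor-like cells. The cultures held almost no Eomes, the defining gene of that class, so unlike cells are compared here. In apical progenitor-like cells the interval of Mfng included no difference. Dner was lower in cKO cultures and had log2 ratios of 0.81 in apical progenitor-like, 0.70 in intermediate progenitor-like, 0.81 in migrating neuron-like, 0.69 in immature neuron-like and 0.17 in GE-like cells.

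Some members also differed in direction between classes of the same 2 embryos, and the difference was not tested here either. The log2 ratio of Notch1 was 0.53 in GE-like and -0.37 in cycling GE-like cells. That of Dll1 was 0.38 in immature neuron-like and -0.28 in apical progenitor-like cells. Dner had a log2 ratio of -0.57 in Cajal-Retzius-like cells, against positive values in apical progenitor-like (0.81), intermediate progenitor-like (0.70), migrating neuron-like (0.81), immature neuron-like (0.69) and GE-like cells (0.17). The Cajal-Retzius-like class had 63 WT and 111 cKO cells.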

How the results depend on the processing

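Of 140 member values in the cultures under 14 alternatives, 137 kept their direction and their side of the threshold. Dll3 lost its call without WT culture 1 (log2 fold change 0.63, adjusted p = 0.146), and Notch3 gained one without WT culture 3 (0.28, adjusted p = 0.0337) and with the replicate number as a block (0.21, adjusted p = 0.0376). With each culture left out in turn, 3 to 5 members were higher and 2 were lower, 18 to 27 of the pathway genes were called against 24 with all cultures, and over all genes 2068 to 3070 were higher and 2040 to 3275 lower. With the replicate block, 5 members were higher and 2 lower, and 3189 genes were higher and 3216 lower against 2843 and 2858 without it. The deviations of same-numbered cultures correlated at 0.264, -0.0466 and 0.116, and those of differently numbered ones at -0.344 to 0.286. Deviations from means of so few cultures constrain each other, so these values cannot decide whether the numbers pair the cultures.

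In the embryos 67 of 71 member values moved by less than their counting interval. With equal phase weights the log2 ratio in apical progenitor-like cells was -0.21 for Notch2, -0.01 for Dll1 and 0.36 for Mfng, and without the uneven cluster, an alternative chosen after seeing the data, that of Dner in migrating neuron-like cells was 0.50. The median over members in apical progenitor-like cells ran from -0.07 to -0.01. The highest class was the same for 13 of 20 pairs of member and embryo at resolution 0.4, where vessel and meningeal cells did not form classes of their own, and for 18 at resolution 1.2. Jag1 (100 WT and 169 cKO UMIs) and Dll3 (58 and 93) in apical progenitor-like cells are limited by depth.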
